A study of Mus musculus with 11 samples.

Results

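Molecular chaperones of the HSP, DNAJ and CCT families were followed in mouse CD8+ T cells by RNA sequencing. The members are all protein-coding genes whose symbols begin as Hspa, Hspb, Hspd1, Hspe1, Hsph1, Hsp90, Dnaja, Dnajb, Dnajc or Cct with a number, together with Tcp1, and same-named pseudogenes were left out. The rule found 82 genes among 55414 in the deposited table: 56 assigned to the cytosol, 13 to the endoplasmic reticulum (ER), 10 to mitochondria and 3 (Hspb11, Dnajc22 and Dnajc25) to none of these. Of the 82, 75 passed the filter on low counts, and the 7 others (Cct8l1, Dnajb8, Dnajc5b, Dnajc5g, Dnajc22, Hspb2 and Hspb3) never exceeded 0.274 CPM (counts scaled to a library size of 1000000).

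All cells carried the OT-I transgenic T cell receptor, which recognises a peptide of ovalbumin, and were collected at 12 h. Torin libraries (n = 3, numbered 1, 3 and 4) came from cells given Torin, an inhibitor of the kinase mTOR, together with the peptide N4. Stimulated libraries (n = 4) came from cells given the solvent DMSO with N4, and naive libraries (n = 4) from cells that received no treatment. The labels do not say whether the libraries came from separate mice, so the p-values measure only the spread between these libraries.

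Chaperones bind unfolded or partly folded proteins and help them reach their native shape. HSP70 proteins do so in cycles of ATP hydrolysis that DNAJ (HSP40) partners start, HSP90 acts later on selected clients such as kinases, and the ring-shaped CCT complex encloses actin, tubulin and other newly made proteins. Mitochondria and the ER hold sets of their own, and in both the cytosol and the ER some chaperone genes are always active while others are induced when unfolded proteins accumulate.

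CPM values were computed from the deposited estimated counts, with library sizes corrected by TMM composition factors. Library totals, 241.9e6 to 405.9e6, are larger than sequencing runs of this kind usually give, which the labels leave unexplained. TMM factors were 0.939 to 0.976 in Torin, 0.727 to 0.963 in stimulated and 1.13 to 1.35 in naive libraries, and with totals alone the median log2 change of all genes for stimulated against naive moved to -0.71, against -0.22 with TMM. All 9 CD8 T cell markers examined were present, with summed levels of 5931 to 14591 CPM. By edgeR, 5 of these 9 were lower in stimulated and 3 lower in Torin than in naive libraries. In Torin against stimulated libraries 2 were higher. Summed myeloid markers (10 genes) reached 1966 CPM in stimulated library 2 and 9539 CPM in naive library 2. Outside the libraries numbered 2 they were 26.3 to 54.9 CPM in Torin, 23.6 to 54.5 CPM in stimulated and 234 to 353.5 CPM in naive libraries. Summed B cell markers (7 genes) were 13243, 14392 and 47394 CPM in the Torin, stimulated and naive libraries numbered 4, and outside these 38.5 to 55.3 CPM in Torin, 43.1 to 117 CPM in stimulated and 222 to 366 CPM in naive libraries. Summed erythroid and platelet markers (6 genes) averaged 304 ± 109 CPM in Torin, 459 ± 239.9 CPM in stimulated and 761 ± 302 CPM in naive libraries (SD). By edgeR 4 of 10 myeloid, 2 of 6 tested B cell and 2 of 6 erythroid and platelet markers were lower in stimulated than in naive libraries, and 6, 1 and 1 were lower in Torin than in naive libraries. Their part in the comparisons with naive libraries was not tested.

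Known control elements were looked for first, in RefSeq promoters (250 bases before to 50 after each start, GRCm38.p6), which were found for 67 of the 82 members. The heat shock element, bound by the factor HSF1, was searched on both strands as 3 units (GAA, TTC and GAA) and as 2 units (GAA and TTC), with 2 free bases between units, where a 3-unit match on either strand also holds a 2-unit match. The 3-unit form was found in 4 members with a promoter (5.97%), namely Hspe1, Hspd1, Hsph1 and Dnajb6, against 0.662% of 27025 genes, and the 2-unit form in 16 (23.9%), against 9.04% of all genes. The ER stress element, CCAAT and CCACG with 9 free bases between, was found in 3 members (4.48%), Hspa5, Hsp90b1 and Dnajc3, against 0.137% of all genes, and the E-box CACGTG in 6 (8.96%), against 8.09%. Below are stretches before the start of 3 members with a heat shock element, which turned out to behave differently from each other, and of 2 with an ER stress element. Coordinates are those of GRCm38.p6, and capitals mark the matches.
Hspe1 (chr1:55088019-55088116, plus strand): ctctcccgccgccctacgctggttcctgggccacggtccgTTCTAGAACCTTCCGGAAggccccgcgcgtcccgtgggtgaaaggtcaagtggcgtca
Dnajb6 (chr5:29735812-29735897, plus strand): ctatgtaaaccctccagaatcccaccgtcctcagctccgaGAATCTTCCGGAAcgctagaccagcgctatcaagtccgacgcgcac
Hspa1a (chr17:34972213-34972300, minus strand): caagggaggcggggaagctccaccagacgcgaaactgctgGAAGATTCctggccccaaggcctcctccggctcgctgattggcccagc
Hspa5 (chr2:34771985-34772083, plus strand): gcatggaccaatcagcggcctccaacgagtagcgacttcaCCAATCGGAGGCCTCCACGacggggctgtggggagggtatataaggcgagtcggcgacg
Dnajc3 (chr14:118937787-118937885, plus strand): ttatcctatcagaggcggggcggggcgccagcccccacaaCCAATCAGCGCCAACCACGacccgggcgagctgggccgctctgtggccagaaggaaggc
The Hspe1 stretch holds overlapping 3-unit matches and lies between Hspe1 and Hspd1, which are transcribed away from each other, so the same bases are also within the promoter window of Hspd1. The Hspa1a stretch holds a 2-unit match only. A match describes letters in a window and is not evidence of binding.

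Summed over all 82 members, chaperone transcripts made up 9163 ± 722 CPM in Torin libraries (SD, n = 3), 13861 ± 521 CPM in stimulated libraries (SD, n = 4) and 4131 ± 493 CPM in naive libraries (SD, n = 4). The summed levels of the 3 groups did not overlap. Hspe1 alone averaged 1856 CPM in Torin, 4794 CPM in stimulated and 312 CPM in naive libraries. The cytosolic sums, which do not hold Hspe1, were 5316 to 5866 CPM in Torin, 6136 to 7628 CPM in stimulated and 1785 to 2640 CPM in naive libraries. In bulk RNA, fewer cells of a type and less RNA per cell cannot be told apart. By gene, 32 of the 75 tested members were higher and 12 lower in stimulated than in naive libraries (edgeR quasi-likelihood test, Benjamini-Hochberg adjusted p under 0.05 over 22238 genes). Of all genes tested, 19.2% were higher and 20.2% lower. With library totals alone in place of TMM the members split as 23 higher and 20 lower, against 11.7% and 29.4% of all genes. The median log2 change was 1.16 in the mitochondrial class, with 6 members higher and 4 lower of 10, and 0.95 in the cytosolic class, with 22 higher and 7 lower of 50. Without stimulated library 3 these medians were 0.96 and 1.04, so their order turned. The ER class had a median of 0.12, with 3 higher and 1 lower of 13, and differences between classes were not tested.

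Several calls for stimulated against naive ended without the libraries with high B cell or myeloid markers, which also leaves fewer libraries, or with another scaling. Without the libraries numbered 4, 10 of the 44 calls ended (Cct6b, Dnaja1, Dnaja3, Dnaja4, Dnajb11, Dnajc7, Dnajc10, Dnajc15, Dnajc28 and Dnajc30), and Dnajc3 became lower (-0.73, adjusted p = 0.0295, edgeR). Without those numbered 2, 5 ended (Dnaja1, Dnajb11, Dnajc10, Dnajc30 and Hspb9), and Dnajb12 and Dnajc18 became lower. With library totals alone 9 rises ended (Dnaja1, Dnaja2, Dnaja3, Dnajb5, Dnajb11, Dnajc17, Dnajc21, Dnajc25 and Hspa14, at 0.05 to 1.01) and 8 members became lower, among them Cct6a (-0.88) and Dnajc3 (-1.05).

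**Figure D1:**
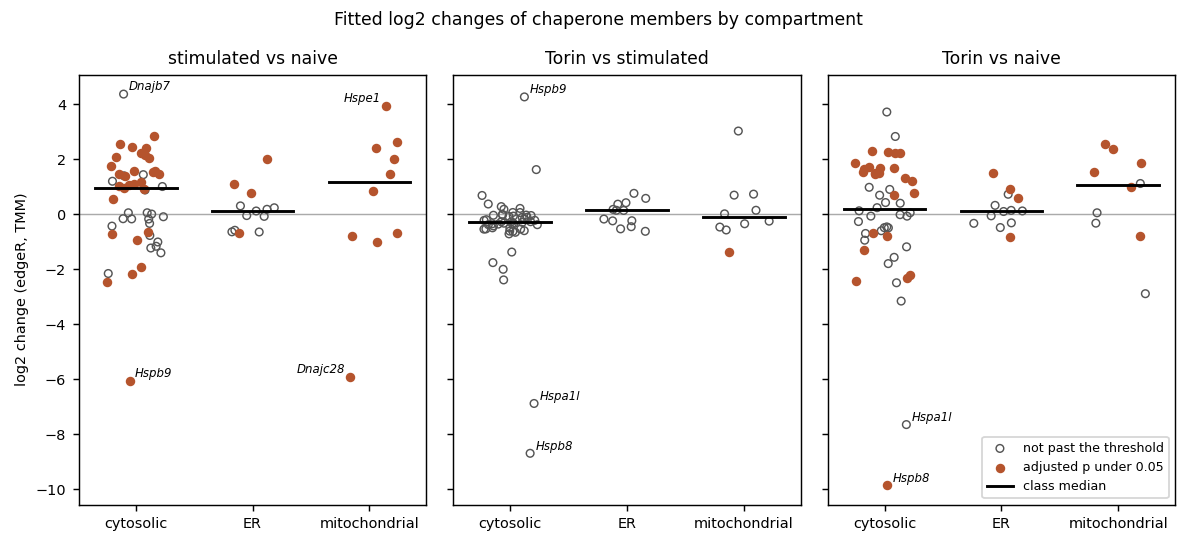
Fitted log2 changes (vertical axis, edgeR with TMM scaling) of tested members in the cytosol (50), ER (13) and mitochondria (10) for 3 comparisons; the 2 tested members assigned to none are not drawn. Filled points have an adjusted p under 0.05, open points do not, and bars are class medians. Most filled points lie in the comparisons with naive libraries, and a single filled point, Hspe1 at -1.37, lies in Torin against stimulated.

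Among cytosolic HSP70 and HSP90 genes, Hspa8 and both HSP90 genes rose with stimulation, and the stress-inducible HSP70 genes Hspa1a and Hspa1b did not pass the test. Hspa8 had 712, 597 and 809 CPM in the Torin libraries, 1293, 1228, 739 and 1355 CPM in the stimulated and 338, 281, 209 and 198 CPM in the naive libraries. Hspa8 encodes HSC70, the housekeeping HSP70, and its stimulated and naive libraries did not overlap, with log2 changes of 2.17 ± 0.24 (SE, adjusted p = 4.44e-05) for stimulated and 1.46 ± 0.24 (adjusted p = 0.00106) for Torin against naive by edgeR. Hsp90ab1 had 1772, 1873 and 1621 CPM in the Torin libraries, 2299, 2014, 1876 and 1967 CPM in the stimulated and 486, 398, 325 and 267 CPM in the naive libraries, and it encodes the constitutive HSP90 beta. Hsp90aa1 had 571, 553 and 603 CPM in the Torin libraries, 918, 924, 775 and 923 CPM in the stimulated and 162, 156, 100.4 and 75.6 CPM in the naive libraries, and it encodes HSP90 alpha, the more inducible form. Both were far above naive levels in every Torin and stimulated library, with log2 changes for stimulated against naive of 2.47 for Hsp90ab1 and 2.84 for Hsp90aa1. Per kilobase of transcript, the ratio of Hsp90aa1 to Hsp90ab1 was 0.242 to 0.305 in Torin, 0.324 to 0.374 in stimulated and 0.222 to 0.312 in naive libraries, so the stimulated libraries lay above the others.

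The HSP110 genes Hsph1 and Hspa4, whose products release nucleotide from HSP70, also rose. Hsph1 had 29.9, 30.3 and 32.1 CPM in the Torin libraries, 32.1, 33.0, 36.1 and 39.5 CPM in the stimulated and 6.42, 7.26, 7.16 and 5.55 CPM in the naive libraries. Hspa4 had 55.9, 46.3 and 63.0 CPM in the Torin libraries, 69.8, 67.3, 63.3 and 64.9 CPM in the stimulated and 28.5, 25.9, 20.5 and 20.2 CPM in the naive libraries. Hsph1 was low in every naive library and varied little within the other groups, with log2 changes of 2.41 ± 0.14 for stimulated and 2.22 ± 0.14 for Torin against naive (SE, adjusted p = 6.09e-06 and 2.48e-05, edgeR). Hspa4 changed by 1.48 and 1.21 in the same comparisons. Hspa4l, a close relative, averaged 8.08 ± 0.823 CPM in Torin, 6.64 ± 1.37 CPM in stimulated and 2.20 ± 0.681 CPM in naive libraries (SD), and rose by 1.59 in stimulated and 1.87 in Torin against naive. Hspa14, which works at the ribosome, rose by 1.02 in stimulated against naive, while its change of 0.43 in Torin against naive did not pass (adjusted p = 0.0834). In all, 5 of 11 cytosolic HSP70 and HSP110 genes rose with stimulation and none fell at the threshold, against 19.2% and 20.2% of all genes.

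The inducible HSP70 genes Hspa1a and Hspa1b stayed low in all libraries. Hspa1a had 0.617, 0.754 and 0.275 CPM in the Torin libraries, 1.46, 5.61, 1.69 and 2.698 CPM in the stimulated and 0.813, 1.33, 1.78 and 0.284 CPM in the naive libraries. Hspa1b had 1.23, 0.808 and 0.439 CPM in the Torin libraries, 0.689, 5.38, 3.49 and 3.60 CPM in the stimulated and 1.12, 1.71, 1.96 and 0.192 CPM in the naive libraries. Stimulated library 2 was highest for both, and the stimulated and naive libraries overlapped. Their log2 changes for stimulated against naive were 1.44 ± 0.61 (adjusted p = 0.0836) and 1.40 ± 0.71 (adjusted p = 0.145). DESeq2 and the fit with the replicate number as a block called Hspa1a higher (adjusted p = 0.0357 and 0.0488). The coding sequences of this pair are nearly identical, so the split of reads between them is uncertain. Per kilobase, Hspa8 exceeded Hspa1a 987 to 3699 times in Torin, 273 to 1103 times in stimulated and 154 to 849 times in naive libraries. Heat shock genes are also known to respond to cell handling, and the summed level of 8 handling genes was 633 ± 29.1 CPM in Torin, 558 ± 78.4 CPM in stimulated and 831 ± 225 CPM in naive libraries (SD), of which 2 rose and 4 fell with stimulation. The part of handling in these values was not tested. The remaining HSP70 genes, Hspa2, Hspa1l, Hspa12a and Hspa12b, did not exceed 1.65 CPM in any library and did not pass in any comparison.

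**Figure D2:**
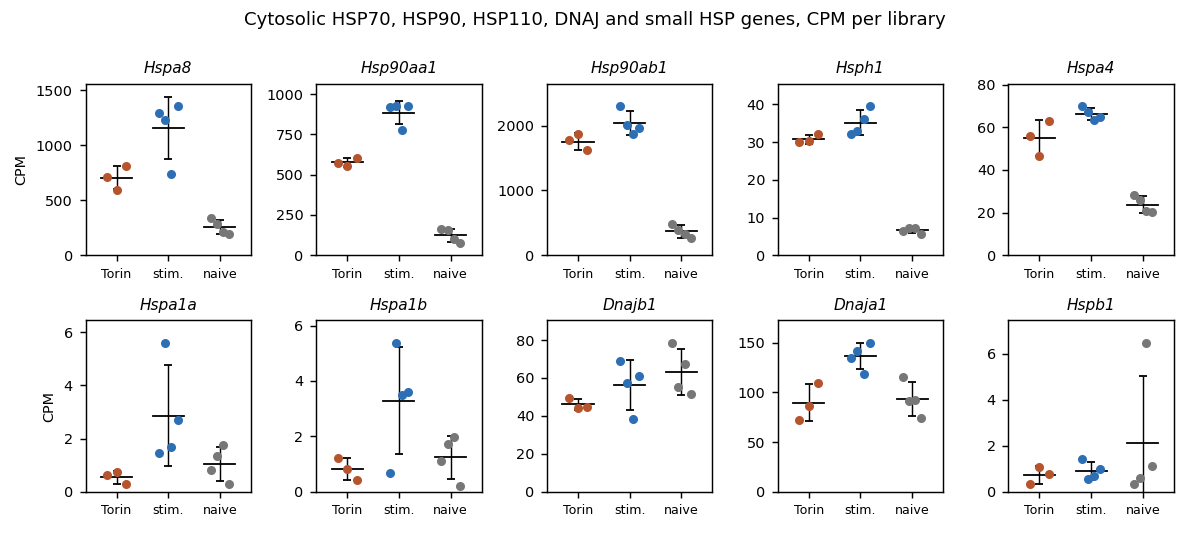
CPM (vertical axes, each starting at 0) of 10 cytosolic chaperone genes in Torin (n = 3), stimulated (n = 4) and naive (n = 4) libraries; points are libraries, long bars means and error bars SD. Hspa8, Hsp90aa1, Hsp90ab1, Hsph1 and Hspa4 stand above every naive library in the other groups, while Hspa1a, Hspa1b and Hspb1 stay under 7 CPM throughout.

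The DNAJ family includes partners that select clients for HSP70, and some of its members act elsewhere. Of the 23 tested DNAJ genes assigned here to the cytosol, 8 rose and 5 fell in stimulated against naive libraries. Of all genes, 19.2% were higher and 20.2% lower. Dnaja1 had 72.6, 86.3 and 109 CPM in the Torin libraries, 135, 142, 119 and 149.9 CPM in the stimulated and 116, 91.6, 92.7 and 74.2 CPM in the naive libraries. Dnaja1, the main partner of HSC70, was above all naive libraries in the stimulated libraries and overlapped them in Torin libraries, with log2 changes of 0.54 ± 0.17 (adjusted p = 0.0248) and -0.06 ± 0.18 (adjusted p = 0.827, edgeR). The stimulated call was small and ended with library totals alone (0.05) and without any of 5 single libraries, stimulated 2 and 4 and naive 2, 3 and 4 (0.45 to 0.54). Dnajb1 had 49.2, 44.2 and 44.7 CPM in the Torin libraries, 68.9, 57.2, 38.1 and 61.0 CPM in the stimulated and 78.6, 55.0, 67.2 and 51.7 CPM in the naive libraries. This heat-inducible partner did not pass in any comparison, and its libraries overlapped between stimulated and naive. All Torin libraries lay below all naive libraries, a change of -0.46 ± 0.21 (SE, adjusted p = 0.124, edgeR). With a filter at a mean of 5 CPM that change passed (-0.61, adjusted p = 0.0189). The other rises in stimulated against naive were Dnaja2 (1.06), Dnajc2 (1.40), a ribosome-bound partner, Dnajc21 (1.47), which acts in ribosome assembly, Dnajc24 (1.19), which acts in diphthamide synthesis, Dnajc27 (1.11), Dnajc17 (0.96) and Dnajb5 (0.94). Of these, Dnaja2, Dnajc2, Dnajc24 and Dnajc27 were also higher in Torin than in naive libraries, by 0.79, 1.34, 0.69 and 1.49.

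The falling DNAJ genes were mostly of low level. Dnajc12 averaged 1.78 ± 0.565 CPM in Torin, 1.70 ± 0.476 CPM in stimulated and 9.48 ± 1.64 CPM in naive libraries (SD), a log2 change of -2.48 ± 0.29 (adjusted p = 6.78e-05, edgeR) for stimulated against naive. Dnajb13, a gene known from cilia and sperm, averaged 2.36 ± 0.613, 3.15 ± 0.610 and 11.8 ± 2.71 CPM in the same order, a change of -1.90. Both were lower in every Torin and stimulated library than in any naive library. Dnaja4 (-0.94), Dnajc9 (-0.70), a histone chaperone, and Dnajc7 (-0.63), which links HSP70 and HSP90, fell as well, and the call of Dnaja4 ended without stimulated library 1 or 3 and that of Dnajc7 without stimulated library 3. Dnajb6, whose promoter holds the 3-unit heat shock element printed above, had 60.2, 52.2 and 88.0 CPM in Torin, 65.2, 73.7, 60.4 and 67.8 CPM in stimulated and 70.8, 63.1, 62.7 and 59.8 CPM in naive libraries, and all 3 groups overlapped. Its log2 change for stimulated against naive was 0.06 ± 0.16 (adjusted p = 0.805), against 3.94 for Hspe1 and 2.41 for Hsph1, which also hold that form.

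Small HSPs, which hold unfolded proteins without ATP, were scarce, with a sum over 7 genes of 1.89 ± 0.575 CPM in Torin, 2.25 ± 0.689 CPM in stimulated and 5.16 ± 3.12 CPM in naive libraries (SD). Hspb1 had 0.318, 1.06 and 0.785 CPM in the Torin libraries, 1.43, 0.554, 0.692 and 0.976 CPM in the stimulated and 0.339, 0.613, 6.48 and 1.11 CPM in the naive libraries. The highest of these, in naive library 3, stood apart and the groups overlapped. Hspb9 was listed at 0 in 3 of 4 stimulated libraries and at 0.0184 CPM in the other, against 0.0937, 0.225, 0.815 and 0.227 CPM in naive libraries, and passed as lower (adjusted p = 0.0225), a call that ended without stimulated library 3 or naive library 3. Hspb8 was listed at 0 in all 3 Torin libraries, against 0.260, 0.413, 0.116 and 0.714 CPM in naive libraries, at least 38.5-fold lower at a floor of 3 counts per library (adjusted p = 0.0397, edgeR). That call ended when any one Torin or naive library was left out (adjusted p 0.0529 to 0.0954).

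Of the 8 different subunits that build each ring of the CCT chaperonin, 7 had genes that rose with stimulation and did so with Torin too. Of all genes, 19.2% were higher in stimulated and 16.4% in Torin than in naive libraries. Tcp1 had 143, 138 and 199 CPM in the Torin libraries, 196, 231, 188 and 204 CPM in the stimulated and 57.1, 55.8, 41.7 and 42.5 CPM in the naive libraries. Cct3 had 256, 200.1 and 239 CPM in the Torin libraries, 286, 277, 259 and 258 CPM in the stimulated and 64.7, 55.1, 42.4 and 23.2 CPM in the naive libraries. Every stimulated and Torin library exceeded every naive library for both, with log2 changes for stimulated against naive of 2.05 ± 0.17 (adjusted p = 1.08e-05) for Tcp1, the alpha subunit, and 2.54 ± 0.27 (adjusted p = 3.64e-05) for Cct3, the gamma subunit. Cct5 had 355, 290.5 and 378 CPM in the Torin libraries, 585, 475, 379 and 532 CPM in the stimulated and 156, 102, 95.5 and 64.3 CPM in the naive libraries. The epsilon subunit gene Cct5 did not overlap naive libraries either, and per kilobase its level in stimulated libraries, 269 ± 47.7 CPM (SD), was the highest of the set. Cct2 had 113, 123 and 138 CPM in the Torin libraries, 133, 134, 143 and 127 CPM in the stimulated and 48.5, 42.0, 40.5 and 27.3 CPM in the naive libraries. Cct4 had 121, 104 and 144 CPM in the Torin libraries, 121, 126, 119 and 133 CPM in the stimulated and 47.2, 40.9, 48.0 and 36.0 CPM in the naive libraries. These subunits, beta and delta, varied little among stimulated libraries and overlapped between Torin and stimulated libraries. Cct7 had 285, 344 and 328 CPM in the Torin libraries, 278, 376, 368 and 291 CPM in the stimulated and 141, 115, 98.3 and 86.5 CPM in the naive libraries. Cct8 had 219, 187 and 301 CPM in the Torin libraries, 329, 322, 261 and 309.8 CPM in the stimulated and 104, 76.2, 62.9 and 47.5 CPM in the naive libraries. For the eta and theta subunits too, both groups given N4 lay wholly above naive. The log2 changes for stimulated against naive were 2.24 for Cct5, 1.76 for Cct2, 1.53 for Cct4, 1.57 for Cct7 and 2.07 for Cct8, and those for Torin against naive were 1.71, 1.66, 1.51, 1.53 and 1.70. The 7 subunit genes Tcp1, Cct2, Cct3, Cct4, Cct5, Cct7 and Cct8 passed the test in both comparisons with naive libraries, also with library totals alone. Cct6b, a form of the zeta subunit known from testis in mouse, did not exceed 1.65 CPM and fell by 2.16 (log2) in stimulated against naive. It was also lower in Torin than in naive libraries (-2.19, adjusted p = 0.0259), which ended with the replicate block (-1.84, adjusted p = 0.0677), and without Torin library 3 or 4 or naive library 2 or 3, and both calls ended without the libraries numbered 4.

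**Figure D3:**
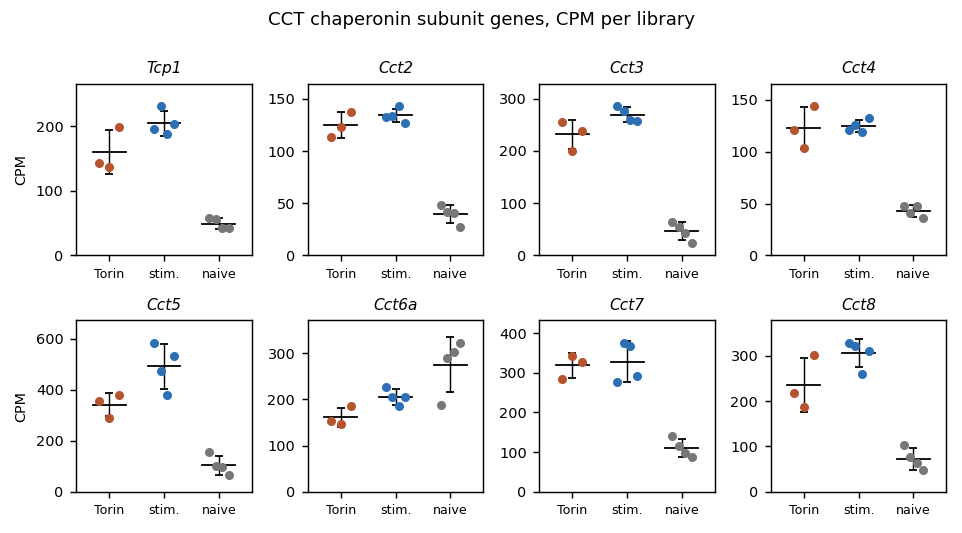
CPM (vertical axes, each starting at 0) of the 8 CCT subunit genes in Torin (n = 3), stimulated (n = 4) and naive (n = 4) libraries; points are libraries, long bars means and error bars SD. In 7 panels both groups given N4 lie above all naive libraries, and in the Cct6a panel naive libraries 2, 3 and 4 lie above all others.

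Cct6a, the zeta subunit gene, differed from the rest of the ring at the gene level. Cct6a had 152, 147 and 185 CPM in the Torin libraries, 226, 205, 185 and 204 CPM in the stimulated and 188, 289, 303 and 323 CPM in the naive libraries. Its naive libraries were not low, and its log2 change was -0.43 ± 0.17 (adjusted p = 0.0685) for stimulated and -0.77 ± 0.19 (adjusted p = 0.00879) for Torin against naive by edgeR. The stimulated change passed without naive library 1 (-0.58, adjusted p = 0.00462), and the Torin call ended without the libraries numbered 4 (-0.67, adjusted p = 0.0697). The transcript table showed what these counts were made of. Cct6a-203, a retained-intron transcript of 460 nt, held 10.8, 13.6 and 7.18% of Cct6a counts in Torin libraries, 13.7, 10.1, 15.6 and 10.3% in stimulated and 73.3, 87.4, 90.2 and 92.7% in naive libraries. Cct6a-202, of 2454 nt, had 136, 127 and 172 CPM in Torin, 195, 184, 156 and 183 CPM in stimulated and 50.2, 36.2, 29.6 and 23.5 CPM in naive libraries. Thus the short form filled most of the count in naive libraries and little of it in the others, with no overlap, while the long form was lowest in naive libraries. Relative to the gene, Cct6a-203 changed by -2.78 (log2, limma adjusted p = 6.39e-05) in stimulated and -3.03 (adjusted p = 0.000155) in Torin against naive. With the counts of Cct6a-203 left out, an alternative chosen after seeing the data, Cct6a was higher by 2.36 (adjusted p = 2.18e-05) in stimulated and 2.05 (adjusted p = 0.000115) in Torin than in naive libraries. The first of these lies within the range of the other 7 subunits that rose in stimulated against naive (1.53 to 2.54). The tables do not say how reads were divided between the short form and the long one, and whether they came from Cct6a pre-mRNA was not tested.

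**Figure D4:**
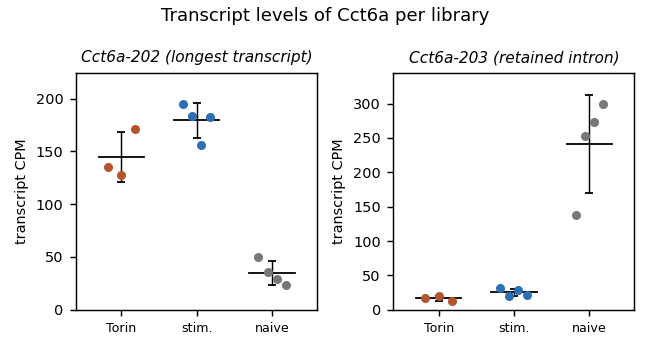
CPM (vertical axes, each starting at 0) of 2 Cct6a transcripts in Torin (n = 3), stimulated (n = 4) and naive (n = 4) libraries; points are libraries, long bars means and error bars SD. Cct6a-202 is lowest and Cct6a-203 highest in the naive libraries, with no overlap with the other groups.

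Other members also changed in transcript make-up. Of 271 member transcripts tested in 61 genes, 109 changed relative to their gene in stimulated against naive libraries by limma, against 30.6% of all 42833 transcripts. Among the 107 holding at least 10% of their gene's counts in either group, 24 transcripts in 18 genes changed, against 16.1% of all such transcripts. Apart from Cct6a-203, the smallest adjusted p-values belonged to Hsph1-208, Cct2-205, Dnajc15-203 and Tcp1-208 (5.93e-05 to 0.000198), and each of these held under 1% of its gene in every library. Dnajc19-201 fell relative to its gene by 1.69 (adjusted p = 0.00093), with shares of 16.8, 15.8 and 16.6% in Torin, 13.5, 10.7, 6.74 and 10.4% in stimulated and 45.4, 26.7, 25.1 and 37.6% in naive libraries, and Dnajc19-202 rose by 0.44 (adjusted p = 0.0103). Dnajc25-205, annotated as a target of nonsense-mediated decay, had shares of 27.1, 43.0 and 36.8% in Torin, 13.9, 21.5, 13.9 and 13.0% in stimulated and 56.5, 39.5, 59.8 and 40.8% in naive libraries. It fell relative to its gene by 1.44 (adjusted p = 0.000618) in stimulated against naive, and the Torin libraries overlapped the naive ones. In Torin against naive 77 of 271 changed, against 19.8% of all transcripts, and 11 of the 103 with the 10% share, against 10.1% of all such transcripts. In Torin against stimulated 0 of 271 passed by limma, against 1.44% of all, or 0 of 103 with the 10% share, against 0.682%. Dnajc25-205 came closest with 1.03 (adjusted p = 0.0503, limma).

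All 10 mitochondrial chaperones passed in stimulated against naive libraries, 6 higher and 4 lower, where 19.2% of all genes were higher and 20.2% lower. The calls of Dnaja3, Dnajc15, Dnajc28 and Dnajc30 ended without the libraries numbered 4. Hspe1 had 1931, 1511 and 2128 CPM in the Torin libraries, 3899, 4875, 5163 and 5238 CPM in the stimulated and 471, 401, 190.0 and 186 CPM in the naive libraries. Hspe1 encodes HSP10, the lid of the mitochondrial folding chamber, and the 3 groups did not overlap. It had the largest rise among members that passed, 3.94 ± 0.33 (adjusted p = 1.12e-05) in stimulated and 2.57 ± 0.32 (adjusted p = 0.0002) in Torin against naive by edgeR. The Hspe1 pseudogenes in the table (6 genes) summed to 10.9 to 14.4 CPM in Torin, 26.3 to 41.6 CPM in stimulated and 1.17 to 3.53 CPM in naive libraries, so little of the Hspe1 count was listed under them. Hspd1 had 166, 169 and 230.4 CPM in the Torin libraries, 194, 234, 227 and 238 CPM in the stimulated and 62.6, 38.4, 18.6 and 24.3 CPM in the naive libraries. Hspd1 encodes HSP60, the chamber itself, and rose by 2.63 ± 0.34 (adjusted p = 0.000115) in stimulated and 2.39 ± 0.35 (adjusted p = 0.000446) in Torin against naive, with stimulated and Torin libraries overlapping. Although both genes start from the same stretch of DNA printed above, their ratio per kilobase was not constant: Hspe1 over Hspd1 was 27.7 to 35.5 in Torin, 61.3 to 70.9 in stimulated and 22.9 to 30.1 in naive libraries. The stimulated libraries lay apart, and the other groups overlapped. Hspe1 transcripts are short, and how the kit and the counting weigh short transcripts was not tested.

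Hspa9 had 79.8, 67.5 and 94.3 CPM in the Torin libraries, 127, 129.6, 107 and 114 CPM in the stimulated and 31.1, 26.3, 15.9 and 15.5 CPM in the naive libraries. This mitochondrial HSP70, mortalin, which pulls imported proteins into the matrix, rose by 2.43 ± 0.24 (adjusted p = 2.6e-05) in stimulated and 1.86 ± 0.25 (adjusted p = 0.000257) in Torin against naive, and no groups overlapped. Dnajc11, a protein of cristae organisation, averaged 31.5 ± 4.77 CPM in Torin, 43.4 ± 8.76 CPM in stimulated and 10.8 ± 3.85 CPM in naive libraries (SD) and rose by 2.001 and 1.54 against naive. Dnajc19 had 264, 261 and 286 CPM in the Torin libraries, 134, 410.0, 598 and 228 CPM in the stimulated and 90.6, 144, 134 and 128 CPM in the naive libraries. Dnajc19, of the import motor, was widely spread among stimulated libraries, with library 1 inside the naive range, and rose by 1.46 ± 0.38 (adjusted p = 0.00936). For Torin against naive its change of 1.12 did not pass (adjusted p = 0.0503) and did with the replicate block (1.29, adjusted p = 0.0198). Dnaja3 had 28.7, 24.7 and 29.8 CPM in the Torin libraries, 29.0, 19.7, 33.0 and 18.3 CPM in the stimulated and 20.5, 15.6, 9.89 and 8.87 CPM in the naive libraries. This HSP70 partner in the matrix overlapped between stimulated and naive libraries and rose by 0.86 ± 0.29 (adjusted p = 0.0328). That call ended with library totals alone (0.34) and without stimulated library 1 or 3 or naive library 3 or 4 (0.70 to 0.80).

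Of the mitochondrial members that fell, Dnajc15 had the highest level per kilobase, 209 ± 22.0 CPM in Torin, 212 ± 70.4 CPM in stimulated and 411 ± 63.2 CPM in naive libraries (SD). Dnajc15 had 622, 589.8 and 575 CPM in the Torin libraries, 467, 524, 856 and 504 CPM in the stimulated and 875, 983, 1230.4 and 969.9 CPM in the naive libraries. Dnajc15, a relative of Dnajc19 known to restrain respiration, was lower in every Torin and stimulated library than in any naive library, by -0.79 ± 0.20 (adjusted p = 0.00784) for stimulated and -0.77 ± 0.21 (adjusted p = 0.018) for Torin, though without the libraries numbered 4 neither passed (-0.64 in both). The Torin call also ended without any one Torin library (adjusted p 0.0541 to 0.0972). Thus these relatives moved in opposite directions with stimulation. Dnajc30, Dnajc4 and Dnajc28 fell by 0.68, 1.02 and 5.91, the last between near 0 in stimulated libraries (highest 0.0465 CPM) and 1.77, 0.906, 1.08 and 0.869 CPM in naive libraries. Dnajc30 had 49.6, 56.1 and 41.1 CPM in Torin, 34.6, 19.8, 34.6 and 28.5 CPM in stimulated and 53.3, 48.3, 48.4 and 38.2 CPM in naive libraries, so that stimulated libraries were lowest and Torin libraries were within or near the naive range.

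**Figure D5:**
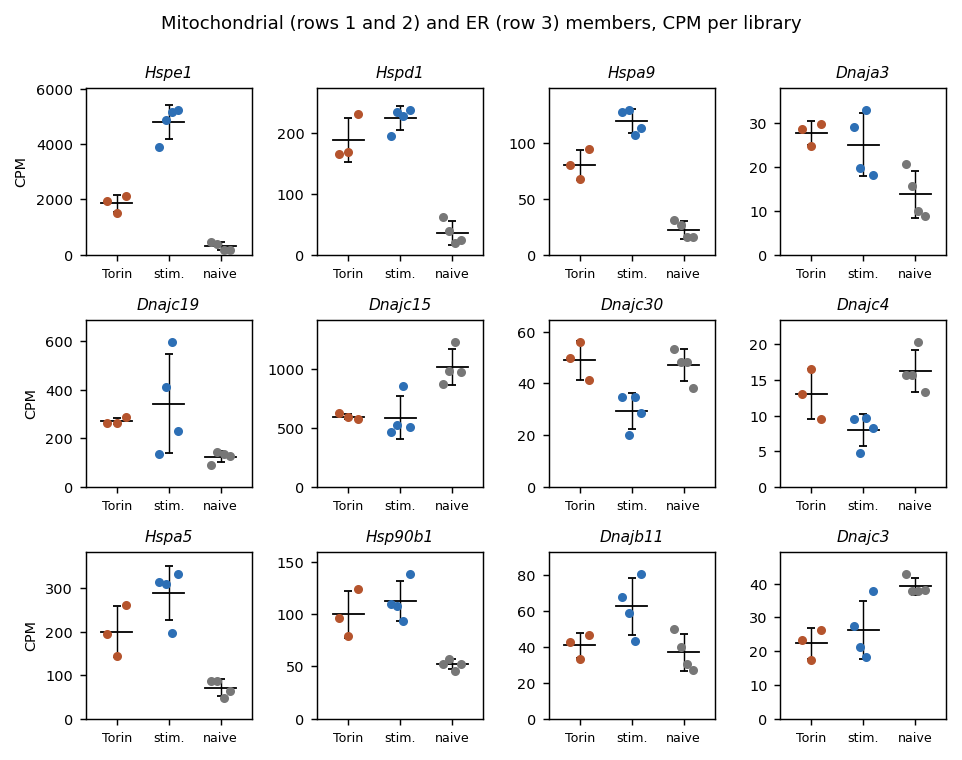
CPM (vertical axes, each starting at 0) of 8 mitochondrial (upper rows) and 4 ER (bottom row) members in Torin (n = 3), stimulated (n = 4) and naive (n = 4) libraries; points are libraries, long bars means and error bars SD. Hspe1 and Hspa9 separate into 3 groups, while Dnajc15 is highest in naive libraries.

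Of 13 ER chaperone genes, 3 rose, 1 fell and 9 did not pass in stimulated against naive libraries, so the share that rose was near the 19.2% of all genes. Hspa5 had 195, 144 and 259.8 CPM in the Torin libraries, 314, 308, 196 and 333 CPM in the stimulated and 86.7, 86.2, 47.1 and 64.6 CPM in the naive libraries. Hspa5 encodes BiP, the HSP70 of the ER, and rose by 2.01 ± 0.26 (adjusted p = 0.000126) in stimulated and 1.49 ± 0.27 (adjusted p = 0.00174) in Torin against naive, with no overlap with naive in either. Hsp90b1 had 96.3, 79.3 and 124 CPM in the Torin libraries, 110.0, 108, 93.4 and 139 CPM in the stimulated and 52.8, 57.5, 45.7 and 52.5 CPM in the naive libraries. This ER form of HSP90, GRP94, likewise lay above naive in every library of both groups and rose by 1.11 in stimulated and 0.94 in Torin against naive, the second call ending with library totals alone (0.60). Dnajb11 had 42.8, 33.3 and 46.7 CPM in the Torin libraries, 67.8, 59.1, 43.0 and 80.8 CPM in the stimulated and 50.1, 39.99, 30.7 and 27.2 CPM in the naive libraries. Dnajb11, a lumenal partner of BiP, overlapped between groups, and its rise of 0.76 ± 0.24 (adjusted p = 0.025) ended with library totals alone (0.28), with the libraries numbered 2 or 4 left out, and without stimulated library 1 or 4 or naive library 3 or 4 (0.61 to 0.72). Dnajc3 had 23.4, 17.3 and 26.3 CPM in the Torin libraries, 27.5, 21.3, 18.3 and 37.9 CPM in the stimulated and 42.9, 37.8, 37.8 and 38.1 CPM in the naive libraries. Dnajc3, known as P58IPK, holds the same element as Hspa5 in its promoter and was highest in naive libraries: its change was -0.58 ± 0.22 (adjusted p = 0.059) in stimulated and -0.81 ± 0.24 (adjusted p = 0.0257) in Torin against naive. The Torin call ended without Torin library 1 or 3 or naive library 1 (adjusted p 0.0517 to 0.11), and with the replicate block the stimulated change passed (-0.64, adjusted p = 0.0175). Dnajb9 had 16.3, 15.5 and 26.7 CPM in the Torin libraries, 12.6, 13.5, 17.5 and 14.5 CPM in the stimulated and 7.34, 13.5, 9.66 and 16.5 CPM in the naive libraries. Dnajb9, another target of ER stress in textbooks, overlapped between all groups and did not pass with all libraries and no block. It was higher in Torin than in naive libraries with the block (0.78, adjusted p = 0.0376, edgeR). Without naive library 4 and with no block it passed as well (0.94, adjusted p = 0.0294). Dnajc10, a disulfide reductase, fell by 0.66 (adjusted p = 0.0407), a call that ended without any single library other than naive 1 or naive 4 (-0.69 to -0.48).

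For Torin against stimulated libraries, the comparison that tests the inhibitor under the same stimulus, 0 members were higher and 1 was lower, against 2.32% and 2.3% of all genes. The lower member was Hspe1, at -1.37 ± 0.33 (SE, adjusted p = 0.0426, edgeR), with its highest Torin library at 2128 CPM and its lowest stimulated library at 3899 CPM. The call ended with the replicate block (-1.33, adjusted p = 0.069) and without any single Torin or stimulated library (-1.46 to -1.24, adjusted p 0.0505 to 0.193), while the change stayed similar in size. At an unadjusted p under 0.05, 6 members were higher and 12 lower, and 20% of all genes passed that mark. DESeq2 called 2 higher (5.28% of all genes), Dnajc9 and Dnajc30, and 10 lower (7.04% of all genes): Hspe1, Hspa8, Hsp90aa1, Hspa1a, Hspa1b, Hspa14, Dnaja1, Dnajc24, Dnajc25 and Hspb8. Hspb8 was at 0.657 CPM in stimulated library 4, against 0 to 0.0143 CPM in the other stimulated libraries and 0 in Torin libraries. Library 4 is among those with high B cell markers, whose part was not tested.

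Without regard to a test, 12 of 75 members had all Torin libraries below all stimulated libraries, against 10.1% of all genes, and 3 had all above, against 9.56%. The 12 were Hsp90aa1, Hsp90ab1, Hspa4, Hspa14, Hspa1a, Dnaja1, Cct3, Cct5, Cct6a, Hspa9, Hspe1 and Dnajc25, and the 3 were Dnajc1, Dnajc9 and Dnajc30. The cytosolic median log2 change was -0.28, with 40 of 50 negative, and that of all genes -0.02. With library totals alone these medians were -0.15 and 0.11. The share of all genes with a negative change was not counted. Among the 11 cytosolic HSP70 and HSP110 genes the median was -0.71, with 10 negative, and it was the value of Hspa8. The genes below it, Hspa1a, Hspa1b, Hspa1l, Hspa12a and Hspa12b, were low in all groups. Above it, Hspa14, Hspa2, Hspa4 and Hsph1 changed by -0.59, -0.32, -0.27 and -0.19, and Hspa4l by 0.28. All 9 tested CCT genes were negative with a median of -0.22, although no single one passed. Of these, Cct4, Cct6b, Cct7 and Cct2 changed by only -0.02 to -0.10. The ER median was 0.14 and the mitochondrial median -0.11. Hspa8 changed by -0.71 ± 0.25 (adjusted p = 0.143) and passed without stimulated library 3 (-0.91, adjusted p = 0.0363), its lowest stimulated library. Hsp90aa1 changed by -0.62 ± 0.24 (adjusted p = 0.175) and Hsp90ab1 by -0.22 ± 0.19 (adjusted p = 0.597).

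Against naive libraries, 25 of 75 members were higher and 9 lower in Torin libraries, against 16.4% and 15.8% of all genes. With library totals alone the split was 20 higher and 14 lower, against 10.3% and 20.5%. Of the 32 members higher in stimulated than in naive libraries, 24 were also higher in Torin than in naive libraries, and both comparisons share the naive libraries. The matching share over all genes was not counted, so this number does not set the members apart from other genes. With the replicate block 29 were higher and 8 lower: Dnajb9, Dnajc19, Dnajc17 (0.63, adjusted p = 0.0491) and Dnajc21 (1.05, adjusted p = 0.00539) passed as well, and Cct6b did not. Without the libraries numbered 4, 7 calls ended (Cct6a, Cct6b, Dnaja2, Dnaja3, Dnajc7, Dnajc15 and Dnajc24) and Dnajc17 became higher, and without those numbered 2 the calls of Cct6b and Hspb8 ended. The medians for Torin against naive were 1.07 for mitochondrial, 0.19 for cytosolic and 0.12 for ER members, against -0.18 for all genes. The largest cytosolic rises were Cct3 (2.32), Hsp90ab1 (2.25) and Hsp90aa1 (2.22). Dnajc1, an ER partner of BiP, passed in this comparison and in neither of the other two, at 25.8, 27.7 and 27.2 CPM in Torin, 23.9, 20.4, 18.9 and 19.9 CPM in stimulated and 20.3, 18.1, 15.4 and 16.6 CPM in naive libraries, a change of 0.61 (adjusted p = 0.00678, edgeR) that ended with library totals alone (0.26).

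Partners of these chaperones were examined in 4 lists. Of 28 co-chaperones and heat shock factors, 14 rose and 3 fell in stimulated against naive, where 19.2% of all genes were higher and 20.2% lower, as for the other lists. Bag2, a nucleotide exchange partner of HSP70, averaged 8.13 ± 2.79 CPM in Torin, 14.99 ± 2.39 CPM in stimulated and 1.89 ± 0.977 CPM in naive libraries (SD) and rose by 2.99, and Stip1, which joins HSP70 to HSP90, rose by 2.28. Cdc37l1 and Fkbp8, both tied to HSP90, fell by 0.79 and 0.60, and the small change of Fkbp8 lost its call without any one of stimulated libraries 2, 3 and 4, Torin library 4 and naive libraries 1 and 3 (-0.61 to -0.37). The factor gene Hsf1 had 38.3 ± 3.47 CPM in Torin, 30.9 ± 5.96 CPM in stimulated and 29.0 ± 6.95 CPM in naive libraries. With all libraries it did not pass in any comparison by edgeR, and without naive library 1 it passed for Torin against naive (0.57, adjusted p = 0.0349). By edgeR with all libraries Hsf2 passed for Torin against naive alone (1.08, adjusted p = 0.00314), a call that ended with library totals alone (0.72). For Torin against stimulated, Hsf2 was higher by DESeq2 (0.74, adjusted p = 0.00442) and by edgeR without naive library 1 (0.77, adjusted p = 0.0445). Of 9 prefoldin subunits and CCT cofactors, which deliver actin and tubulin to CCT, 6 rose and 1 fell. Pfdn4 averaged 134 ± 27.0 CPM in Torin, 329 ± 60.4 CPM in stimulated and 44.8 ± 9.01 CPM in naive libraries and rose by 2.88, Pfdn2 rose by 2.01, and Pfdn5 averaged 189 ± 62.9 CPM in Torin, 72.2 ± 36.6 CPM in stimulated and 282 ± 55.5 CPM in naive libraries and fell by 1.97.

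Of 18 other ER folding genes, 13 rose and 2 fell in stimulated against naive. Sil1, the exchange factor of BiP, rose by 2.11 and Ero1l, an oxidase for disulfide bonds, by 1.73, while Ero1lb and Uggt1 fell by 2.21 and 0.46. The call of Uggt1 was small and ended without several single libraries. Of the ER stress factors, Atf6 rose by 0.96, a call that ended with library totals alone (0.47), and Xbp1 did not pass (0.39, adjusted p = 0.526). Without naive library 4, which had the highest B cell markers, Xbp1 changed by 0.87 in stimulated against naive and did not pass (adjusted p = 0.12, edgeR). For Torin against naive it then changed by 0.81 (adjusted p = 0.186). Of 12 other mitochondrial folding genes, 8 rose and 1 fell, with Lonp1, a matrix protease, at 2.46, Clpp, another, at 1.64 and the iron-sulfur cochaperone Hscb at -1.17. Myc, a transcription factor induced by T cell stimulation, averaged 433 ± 4.09 CPM in Torin, 257 ± 14.2 CPM in stimulated and 30.1 ± 15.7 CPM in naive libraries (SD) and rose by 3.10 in stimulated and 3.85 in Torin against naive.

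Several of these partners passed for Torin against stimulated (2 higher and 4 lower of 67, against 2.32% and 2.3% of all genes), and the difference between them and the members was not tested. Pfdn4 was lower by 1.297 (adjusted p = 0.0122) and Pfdn5 changed by 1.39 (adjusted p = 0.0473). Sdf2l1, which works with BiP, had 81.7, 59.4 and 84.5 CPM in Torin, 277, 222, 161 and 337 CPM in stimulated and 94.7, 168, 81.1 and 105 CPM in naive libraries, a change of -1.73 (adjusted p = 0.0148). Herpud1, of ER-associated degradation, had 14.1, 11.7 and 18.8 CPM in Torin, 60.1, 50.9, 44.1 and 34.5 CPM in stimulated and 39.7, 35.2, 33.9 and 56.4 CPM in naive libraries, a change of -1.67 (adjusted p = 0.00853). For both ER genes the Torin libraries lay below all stimulated libraries. Lonp1 averaged 21.5 ± 1.62 CPM in Torin, 52.3 ± 8.83 CPM in stimulated and 9.48 ± 2.71 CPM in naive libraries, a change of -1.28 (adjusted p = 0.0149). Bag5 was the only gene of the 28 co-chaperones and heat shock factors that passed by edgeR with all libraries, at 0.96 (adjusted p = 0.0336). Each of these 6 calls ended when at least 1 single library was left out: Torin 3 in all 6, Torin 1 in all but Pfdn4 and Herpud1, Torin 4 for Lonp1, Pfdn5 and Bag5, and others for Pfdn5 and Bag5. With the replicate block Bag5 changed by 0.94 and did not pass (adjusted p = 0.0687).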

How the data were processed

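Tables of genes and of transcripts, 11 libraries in each, were used. Values are estimated counts as deposited by the authors, whole numbers that needed no rounding. The submitters' processing notes name mm39 as the build and list DESeq2 1.30.1, R 4.0.5, StringTie 2.1.0, SAMtools 1.9 and STAR 2.7.1a with no roles. Per the labels, the kit was SMARTer ultra-low poly(A). Libraries were grouped by treatment as labelled. Counting strand is not given in the sources used here.

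Identifiers were matched to GENCODE M21 names (52133 genes, 94.1%, holding at least 98.6% of counts), and 1 member, Cct6a, is protein-coding in RefSeq alone. Members, classes and lists were chosen with earlier results of these data known, and the 15 same-named pseudogenes were left out.

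For the 22238 genes that filterByExpr kept (minimum count 10), edgeR 4.0.16 (R 4.3.3) gave quasi-likelihood tests with TMM factors, in 1 model of group means over all 11 libraries. P-values were Benjamini-Hochberg adjusted over all of these, with a threshold of 0.05. Transcript use was tested with limma 3.58.1 on log2(transcript CPM + 0.5) minus log2(gene CPM + 0.5), whose pseudocount of 0.5 understates changes of rare transcripts. CPM per kilobase divides each transcript by its length before summing. The procedures were tested on simulated data. DESeq2 1.42.0, library totals alone, other filters, fewer libraries and a replicate block were tried.

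Same-numbered libraries deviated together in each pair (correlations of deviations from group means of 0.29 to 0.44 for stimulated and naive, 0.20 to 0.52 for Torin and stimulated, 0.17 to 0.41 for Torin and naive), so the numbers were taken to pair them, from the data and not the labels. For the Torin and naive libraries numbered 1 the correlation, 0.17, was near the highest with another number, 0.14. Tests named without the block do not use this pairing. Values with the block are given for the members whose call it changed. No libraries were duplicates (lowest chi-square per gene 290.6). Values per library were given for genes fixed by name. The 3 largest rises and falls past the threshold per class and comparison were named too, some of them with means or changes alone. For the lists of partners up to 2 of each were named, for stimulated against naive and Torin against stimulated. Errors of CPM values are the SD over libraries. The SE of a log2 change is the size of the change divided by the square root of its edgeR F statistic. Motifs and sequences are from RefSeq promoters on GRCm38.p6, while the tables are on mm39.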

Additional observations from a re-analysis of the deposited data

Results flagged for a closer look

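Among 37 members checked in the groups of 4 libraries (74 groups), 5 values stood far from the other libraries of their group, and chance alone marks about 1 in 20 such groups. Dnajc15 was 856 CPM in stimulated library 3, against 467 to 524 CPM in the other stimulated libraries. Hsp90aa1 was 775 CPM in stimulated library 3, against 918 to 924 CPM in the others, so that library was high for one and low for the other. Dnajc3 was 42.9 CPM in naive library 1, against 37.8 to 38.1 CPM in the other naive libraries, a small gap within a tight group. Hspb8 was 0.657 CPM in stimulated library 4, against 0 to 0.0143 CPM in the others. Hspb9 was 0.0184 CPM in stimulated library 4, against 0 CPM in the others. Both small HSP values are low, and library 4 is among those with high B cell markers, whose part was not tested.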

How the results depend on the processing

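Counts of members were steadier for the comparisons with naive libraries than for Torin against stimulated, where 1 call was made. With library totals alone, members lower became 20 (stimulated against naive), 0 (Torin against stimulated) and 14 (Torin against naive), and class medians moved to 0.46 for cytosolic and -0.40 for ER members (stimulated against naive), 0.052 for mitochondrial members (Torin against stimulated) and -0.16 for cytosolic members (Torin against naive). Without the libraries numbered 4, members lower were 6 (stimulated against naive), 0 (Torin against stimulated) and 5 (Torin against naive), and 55 genes in all passed for Torin against stimulated, against 1027 with all libraries. Without those numbered 2 these were 338 genes and 0 members, and with no filter 656 genes and 0 members. For Torin against stimulated, DESeq2 called 2740 genes, 2 members higher and 10 lower; a filter at a mean of 5 CPM gave 2 higher and 3 lower; only the libraries of both groups gave 1 higher and 2 lower. The filter at 5 CPM moved the cytosolic median for Torin against naive to 0.55. The cause of these shifts was not tested, apart from fewer libraries or genes in the fit.

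Leaving out each library in turn, members higher and lower ranged over 29 to 32 and 9 to 13 (stimulated against naive), 0 to 1 and 0 to 2 (Torin against stimulated) and 24 to 28 and 4 to 9 (Torin against naive). Genes in all ranged over 7922 to 8569, 144 to 1058 and 5343 to 7330. Medians ranged over 0.81 to 1.05, -0.39 to -0.18 and 0.06 to 0.33 for cytosolic, -0.03 to 0.26, -0.04 to 0.22 and 0.06 to 0.29 for ER, and 0.96 to 1.3004, -0.19 to 0.13 and 0.99 to 1.14 for mitochondrial members, in the same order. Transcripts with changed use ranged over 92 to 119, 0 to 1 and 57 to 77, and with a prior of 0.1 CPM they were 69 (stimulated against naive) and 32 (Torin against naive), because rare transcripts move with the prior. Without transcript Cct6a-203 the Cct6a change turned to 2.36 for stimulated and 2.05 for Torin against naive. The replicate block left 0 members lower for Torin against stimulated, and the members whose calls it changed are given with their results. Depth limits the precision of genes under 1 CPM most.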
